A study of Mus musculus with 12 samples.

Results

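Small leucine-rich proteoglycans (SLRPs) are secreted proteins of the connective tissue matrix, and 9 of them were followed here: decorin (Dcn), biglycan (Bgn), asporin (Aspn), lumican (Lum), fibromodulin (Fmod), Prelp, keratocan (Kera), osteomodulin (Omd) and osteoglycin (Ogn). Every probe whose gene name on the array is one of these symbols was taken, so the set is 9 of the 27962 gene names and 12 of the 41174 probes on the array. Of these, 10 probes, for 8 of the genes, were bright enough to be tested, among 25591 tested probes in all. Each SLRP has a curved core of leucine-rich repeats, and most carry chains of chondroitin, dermatan or keratan sulfate. Members of the family bind to collagen fibrils and set how thick and how evenly spaced the fibrils become. Several also hold growth factors of the TGF-beta family or signal through receptors at the cell surface. Fibroblasts are a main source of decorin, biglycan and lumican in skin, tendon and cornea.

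RNA came from mouse embryonic fibroblasts (MEFs), connective tissue cells grown out of embryos, in 3 genotypes of Sirt1, which encodes an NAD-dependent protein deacetylase. The KO cells are called homozygous in another label, the Het cells are heterozygous and the WT cells are wild type, and each genotype has 4 arrays. All cells are described as female, were kept in DMEM with 10% serum, 25 mM glucose and 4 mM glutamine, and were harvested in logarithmic growth without a treatment. Which stretch of Sirt1 is missing is not given, nor whether the arrays of a genotype came from separate embryos or cultures. The p-values below therefore cover the spread of these 12 samples and no more, and that spread may be technical. In a bulk sample, fewer cells of a type and less RNA per cell cannot be told apart.

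A level is the log2 of a probe's processed signal minus the 75th percentile of its array, so that 0 is the brightness of that percentile. Levels of different probes are not compared, since each probe has its own brightness. Values are given for KO replicates 2, 3, 4 and 5, Het replicates 2, 3, 4 and 5, and WT replicates 1, 2, 3 and 5, in that order. Differences are log2 values with their standard error (SE), and a probe is called where limma's Benjamini-Hochberg adjusted p over all tested probes is under 0.05. The exact two-sided permutation test of 4 against 4 arrays cannot give a p below 0.0286.

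Several facts of the arrays touch the results. Within a genotype, the levels of arrays other than number 3 correlated at 0.969 to 0.998 over the tested probes, and pairs with an array numbered 3 at 0.923 to 0.970. The array of WT replicate 3 goes against its label as female: the brightest Xist probe stood at −2.99 there, against 1.60 to 3.35 on the other 11 arrays, and the Y-linked Ddx3y stood at 0.99, against −4.42 or less. KO replicates 4 and 5, from 1 slide, were the closest pair (r = 0.998), Het replicates 4 and 5, from different slides, the next (r = 0.993) and WT replicates 2 and 5 the third (r = 0.991), and the labels do not say whether any pair shares a culture. The software called 76.8% to 77.8% of probes well above background on slide 4, with KO replicates 4 and 5, Het replicate 5 and WT replicate 5, and 59.7% to 64.8% on the other slides. For Sirt1, the probe A_51_P141152 stood at −0.52 ± 0.30 in KO, 0.31 ± 0.04 in Het and 0.29 ± 0.20 in WT cells (SD, n = 4), and KO cells held 56.8% of the WT signal (limma adjusted p = 0.0372). The other Sirt1 probe, A_52_P358612, differed by 0.03 between KO and WT cells (limma adjusted p = 0.974). Of 10 fibroblast markers, 10 were well above background on all arrays, and their summed level ran from 9.11 to 9.39 in KO, 9.46 to 9.79 in Het and 9.21 to 9.52 in WT cells. A summed level is the log2 of the markers' added signals, so the brightest probes weigh most.

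Of the 12 probes, 3 are shown, for Dcn, Bgn and Prelp, the genes read by more than 1 probe, so that the stretch each one reads can be seen. Capitals mark the leucine triplets (CTN, TTA or TTG) in 1 reading frame of each probe and, for Dcn, the TAA stop triplet in that frame. For Bgn and Prelp the frame is the open one with the most leucine triplets. For Dcn it is the frame whose only stop triplet lies near its end. The frames were not compared with protein sequences, and more than 1 frame of the Dcn and Prelp probes is open over its whole length. They lie on build mm7 at chr10:97080086-97080145 (Dcn, plus strand), chrX:68879864-68879923 (Bgn, plus strand) and chr1:133804829-133804888 (Prelp, minus strand). Exons and untranslated regions were not assigned on that build.
Dcn A_51_P334104: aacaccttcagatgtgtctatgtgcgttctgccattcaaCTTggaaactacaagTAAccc
Bgn A_52_P162486: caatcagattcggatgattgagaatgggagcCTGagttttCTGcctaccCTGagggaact
Prelp A_51_P439846: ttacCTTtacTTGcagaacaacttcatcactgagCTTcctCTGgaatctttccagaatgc
The Bgn probe holds 3 leucine triplets of 19 in its frame and the Prelp probe 4 of 19, a count that follows in part from the choice of frame. The Dcn probe holds 1 of 20 in the frame marked, with the stop among the 20.

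Among the class I SLRPs, decorin stood apart. Dcn, which coats collagen fibrils and holds TGF-beta, was the only member called between genotypes, lower in KO than in Het cells. At A_51_P334104 the levels were −0.82, −1.32, 0.74 and 0.57 in KO cells, 4.21, 2.66, 2.44 and 2.71 in Het cells, and 1.28, 1.95, 1.26 and 2.56 in WT cells. All KO arrays lay below all Het and all WT arrays, and Het replicate 2 was the highest of the 12. Means were −0.21 ± 1.02 in KO, 3.00 ± 0.81 in Het and 1.76 ± 0.62 in WT cells (SD, n = 4).

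Dcn fell in KO against Het cells by 3.21 on the log2 scale (SE 0.53), or 9.26-fold (limma adjusted p = 0.0187, exact two-sided permutation p = 0.0286). It was the 1 member probe called of 10 in that comparison, where 0.778% of all tested probes were called. Against WT, KO cells had 25.5% of the Dcn signal, with a difference of −1.97 (SE 0.53, limma adjusted p = 0.100, exact two-sided permutation p = 0.0286), which was not called. Het cells differed from WT cells by 1.24 (SE 0.53, limma adjusted p = 0.279), with overlapping levels. The comparisons share arrays: KO against Het and Het against WT use the same Het arrays, and KO against WT and Het against WT the same WT arrays.

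On each slide that held both genotypes, Dcn was lower in KO than in Het cells, with differences of −3.87, −5.03 and −2.05 on slides 1, 3 and 4. It was also lower in KO than in WT cells, with −2.43 and −1.90 on slides 3 and 4. The call in KO against Het cells was kept with slide as a block (−3.55, limma adjusted p = 0.0242). It was lost without KO replicate 2 (−3.01, adjusted p = 0.0830), without Het replicate 2 (−2.81, adjusted p = 0.0624) or without Het replicate 4 (−3.40, adjusted p = 0.0546), and with replicates 4 and 5 averaged into 1 sample in KO and in Het cells (−3.64, limma adjusted p = 0.113). Without WT replicate 3, the difference between KO and WT cells was called as well (−2.14, limma adjusted p = 0.0463).

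A marker of fibroblasts, the surface protein Thy1, was lowest in KO cells, as Dcn was, but highest in WT cells, where Dcn was highest in Het cells. Thy1 stood at 0.52 ± 0.31 in KO, 2.68 ± 0.23 in Het and 3.98 ± 0.68 in WT cells (SD, n = 4). It fell in KO against WT cells by 3.46 (limma adjusted p = 0.000936) and against Het cells by 2.16 (limma adjusted p = 0.0102). Its part in the result was not tested. Pdgfra, a receptor of fibroblasts, was not called, at −1.64 ± 0.97 in KO, −0.55 ± 0.98 in Het and −0.73 ± 2.10 in WT cells. The other fibroblast markers went both ways between KO and WT cells, with no call. Col1a1, Col1a2, Col3a1 and Pdgfrb differed by 0.16, 0.31, 0.27 and 0.29, and Vim, Fn1, Fbln2 and S100a4 by −0.12, −0.29, −0.67 and −1.10. The other Dcn probe, A_52_P252726, lies 36886 bases away at chr10:97043200-97043259, carries the name of a separate cDNA and was not well above background on any of the 12 arrays, so it gives no comparison.

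**Figure D1:**
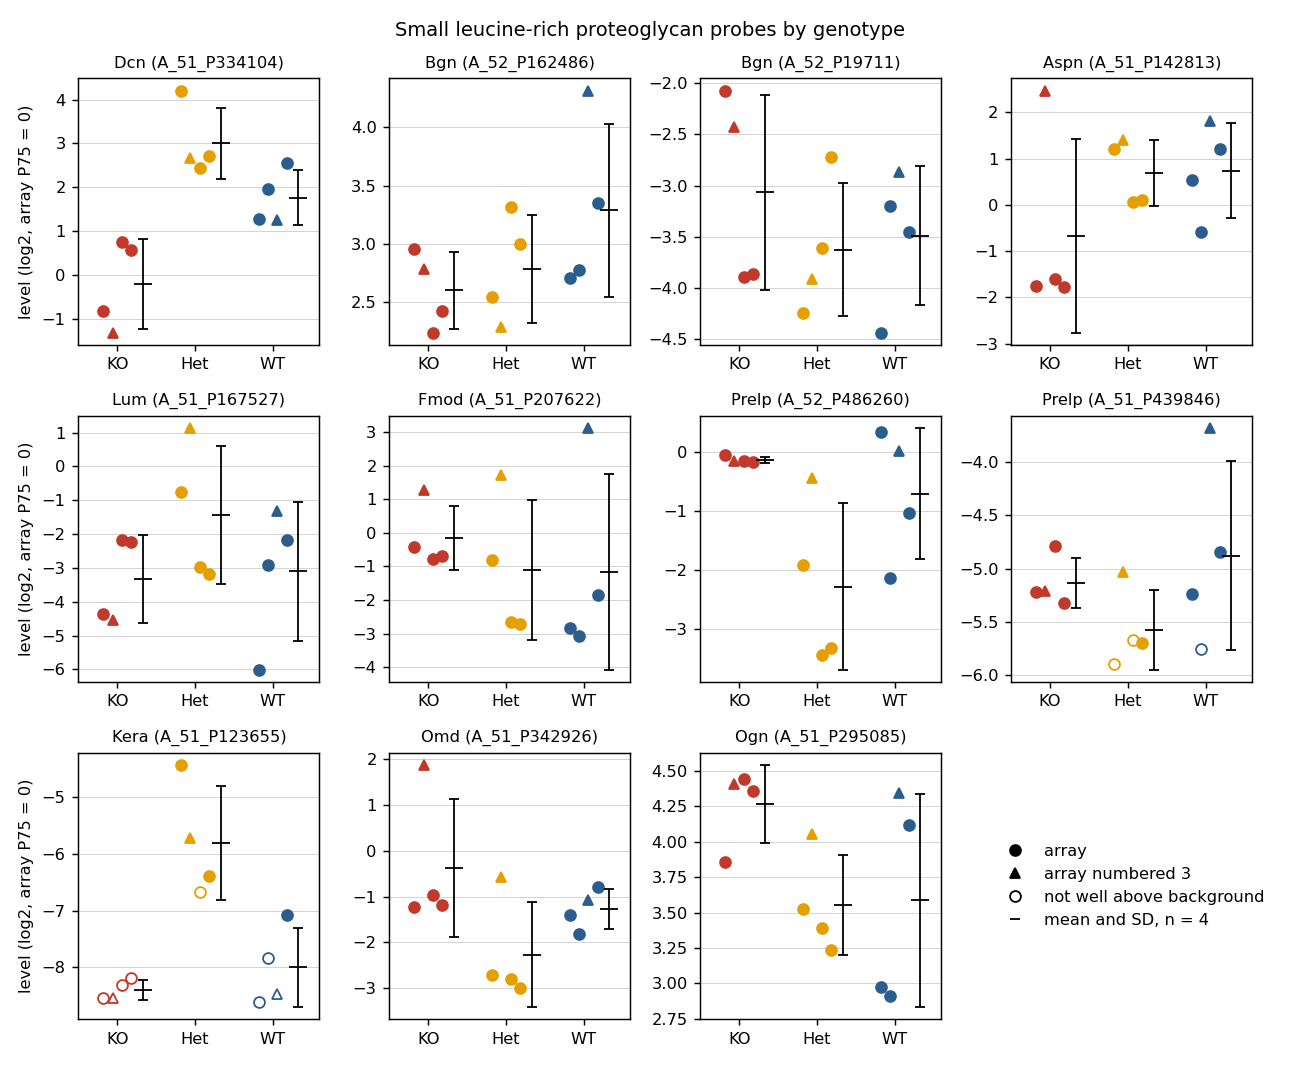
Levels of 11 of the 12 member probes (log2 signal relative to the 75th percentile of the array, each panel with its own axis) in KO, Het and WT cells. Points are arrays, triangles the arrays numbered 3, open points arrays on which the probe was not well above background, and the bars give mean and SD over 4 arrays. The KO arrays lie below all others for Dcn, and the triangles lie above their genotype for Aspn and Fmod.

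Biglycan, the closest relative of decorin in sequence and X-linked, was not called in any comparison. At A_52_P162486, Bgn stood at 2.95, 2.78, 2.23 and 2.42 in KO cells, 2.54, 2.28, 3.32 and 2.99 in Het cells, and 2.70, 2.78, 4.32 and 3.35 in WT cells. The genotypes overlapped, and WT replicate 3 was the highest array. The difference between KO and WT cells was −0.69 (SE 0.35, limma adjusted p = 0.366), between Het and WT cells −0.50 (SE 0.35, adjusted p = 0.515) and between KO and Het cells −0.19 (SE 0.35, adjusted p = 0.905). The 95% interval of the difference between KO and WT cells ran from −1.46 to 0.09.

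The other Bgn probe, A_52_P19711, reads a position 1529 bases away (chrX:68878335-68878394). It differed by 0.42 between KO and WT cells (SE 0.49, limma adjusted p = 0.736), in the opposite direction to the probe above, by −0.14 between Het and WT cells and by 0.56 between KO and Het cells, with no call. In KO cells its levels split, with replicates 2 and 3 at −2.07 and −2.43 and replicates 4 and 5 at −3.90 and −3.86.

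Asporin, a class I member without a glycosaminoglycan chain that binds collagen and TGF-beta, was low on 3 of 4 KO arrays. Aspn stood at −1.76, 2.47, −1.60 and −1.77 in KO cells, 1.20, 1.39, 0.06 and 0.10 in Het cells, and 0.53, −0.59, 1.81 and 1.21 in WT cells. KO replicate 3 was the highest of all 12 arrays and the other 3 KO arrays were the lowest. The fit of 12 arrays called no difference: −1.40 between KO and WT cells (SE 0.88, limma adjusted p = 0.471), −1.35 between KO and Het cells (SE 0.88, adjusted p = 0.634) and −0.05 between Het and WT cells (SE 0.88, adjusted p = 0.984).

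The calls of Aspn turned on KO replicate 3. Without it, Aspn was lower in KO cells, with a difference of −2.45 against WT (limma adjusted p = 0.0355) and of −2.40 against Het cells (adjusted p = 0.0493). Without the arrays numbered 3 of all genotypes, the difference was −2.09 against WT (SE 0.45, adjusted p = 0.0170) and −2.16 against Het cells (SE 0.45, adjusted p = 0.0218). Of the slides that held both KO and Het cells, Aspn differed by 1.75 on slide 1, which held KO replicate 3, and by −2.96 and −1.78 on slides 3 and 4.

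Among the class II SLRPs, most of which carry keratan sulfate, no probe was called with all 12 arrays. Lumican, which spaces collagen fibrils in the cornea and skin, varied widely within every genotype. Lum stood at −4.35, −4.53, −2.16 and −2.22 in KO cells, −0.75, 1.15, −2.98 and −3.16 in Het cells, and −6.01, −2.91, −1.31 and −2.17 in WT cells. Het replicate 3 was the highest array and WT replicate 1 the lowest. The difference was −0.22 between KO and WT cells (SE 1.15, limma adjusted p = 0.957), 1.66 between Het and WT cells (SE 1.15, adjusted p = 0.508) and −1.88 between KO and Het cells (SE 1.15, adjusted p = 0.600). The 95% interval of the KO against Het difference ran from −4.38 to 0.63.

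Fibromodulin, which guides collagen cross-linking in tendon and cartilage, had the widest spread of the members. Fmod stood at −0.41, 1.27, −0.77 and −0.67 in KO cells, −0.79, 1.73, −2.65 and −2.71 in Het cells, and −2.84, −3.08, 3.13 and −1.86 in WT cells. In every genotype the array numbered 3 was the highest. The difference was 1.02 between KO and WT cells (SE 1.34, limma adjusted p = 0.772), 0.06 between Het and WT cells (SE 1.34, adjusted p = 0.988) and 0.96 between KO and Het cells (SE 1.34, adjusted p = 0.855). Without the arrays numbered 3, Fmod was higher in KO than in WT cells by 1.98 (SE 0.52, 3.94-fold, limma adjusted p = 0.0347), and the difference between KO and Het cells, 1.43, was not called (adjusted p = 0.147).

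Prelp, which links basement membranes to collagen through its arginine-rich and proline-rich end, was read by 2 probes 4687 bases apart. At A_52_P486260 (chr1:133800142-133800201) the levels were −0.06, −0.16, −0.16 and −0.17 in KO cells, −1.92, −0.44, −3.44 and −3.32 in Het cells, and 0.34, −2.13, 0.01 and −1.04 in WT cells. The KO arrays ran only from −0.17 to −0.06 and lay above all Het arrays, while the WT arrays spanned both. The difference between KO and Het cells was 2.14 (SE 0.66, limma adjusted p = 0.210, exact two-sided permutation p = 0.0286). With Dcn, it made 2 of 10 tested member probes whose KO and Het arrays did not overlap, where 9.96% of all tested probes did not overlap.

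Prelp was called in KO against Het cells where Het replicate 3 was left out (2.76, limma adjusted p = 0.0298) or all arrays numbered 3 (2.76, SE 0.60, adjusted p = 0.0257). On slides 1, 3 and 4 the KO arrays were higher than the Het arrays by 1.78, 1.85 and 3.16. Against WT, Prelp differed by 0.57 in KO cells (SE 0.66, limma adjusted p = 0.732) and by −1.57 in Het cells (SE 0.66, adjusted p = 0.267). The other probe, A_51_P439846, whose sequence is given above, was well above background on 9 arrays. It differed by −0.26 between KO and WT cells (SE 0.37, limma adjusted p = 0.797), by −0.70 between Het and WT cells (adjusted p = 0.385) and by 0.44 between KO and Het cells (adjusted p = 0.732), and was not called.

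Osteomodulin, a keratan sulfate proteoglycan of bone and tooth matrix, was lower on most Het arrays. Omd stood at −1.24, 1.88, −0.97 and −1.19 in KO cells, −2.71, −0.56, −2.80 and −3.0 in Het cells, and −1.40, −1.82, −1.08 and −0.79 in WT cells. Het replicates 2, 4 and 5 were the lowest arrays, and the array numbered 3 was the highest of the KO and of the Het cells. With 12 arrays the difference was 1.89 between KO and Het cells (SE 0.71, limma adjusted p = 0.324), −1.0 between Het and WT cells (SE 0.71, adjusted p = 0.520) and 0.89 between KO and WT cells (SE 0.71, adjusted p = 0.588).

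Omd was called where the arrays numbered 3 were left out, lower in Het than in WT cells with a difference of −1.50 (SE 0.25, limma adjusted p = 0.00709) and higher in KO than in Het cells by 1.70 (SE 0.25, adjusted p = 0.00369). KO and WT cells then differed by 0.21 (SE 0.25, adjusted p = 0.633). Within slides 1, 3 and 4 the KO arrays were higher than the Het arrays by 3.56, 1.47 and 1.92.

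Keratocan, the keratan sulfate proteoglycan of the corneal stroma, was near background and was not tested. Its probe (chr10:97176083-97176142) was well above background on 0 KO arrays, 3 Het arrays and 1 WT array. Kera stood at −8.53, −8.54, −8.32 and −8.18 in KO cells, −4.43, −5.73, −6.68 and −6.40 in Het cells, and −8.61, −7.84, −8.46 and −7.08 in WT cells. The highest values were on Het arrays, but values on arrays where the probe was not well above background, Het replicate 4 among them, have no order, so the genotypes were not ranked. With the KO mean raised to the lowest signal called well above background on each array, −7.14, the measured Het mean of −5.81 was 2.51-fold higher. That Het mean includes replicate 4, where the probe was not well above background, so the value is no lower bound. In the fit of all probes with no filter on dim ones, Kera was not called (limma adjusted p = 0.0634 in KO against Het and 0.109 in Het against WT cells). It was called in KO against Het cells only in the fit without Het replicate 4, where it passed the filter through the Het arrays alone, so that call is no support for a difference.

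The 4 markers of tendon cells did not share 1 pattern, and Kera itself was not ranked between genotypes. Tenomodulin (Tnmd) stood at −7.61 ± 0.79 in KO, −3.56 ± 2.80 in Het and −7.57 ± 1.45 in WT cells, and was well above background on 6 arrays. Scleraxis (Scx), the transcription factor of tendon progenitors, rose in KO against WT cells by 1.70 (limma adjusted p = 0.00254) and in Het against WT cells by 1.55 (adjusted p = 0.00764). Mkx stood at −1.33 ± 0.41 in KO, −0.87 ± 0.32 in Het and −1.69 ± 0.92 in WT cells. Thbs4 stood at −6.12 ± 0.38, −3.29 ± 1.57 and −4.59 ± 3.11, and neither was called. Over the 4 tendon markers, the summed level ran from 4.03 to 4.44 in KO, 3.65 to 4.42 in Het and 2.55 to 2.93 in WT cells. That sum is mostly the signal of Scx, at 4.24 ± 0.19 in KO, 4.10 ± 0.38 in Het and 2.55 ± 0.13 in WT cells. It therefore shows no joint change of the 4 tendon markers, of which 2 were well above background on all arrays. Their part in the result was not tested. Markers of other cell types were present in part, and some were called between genotypes, in both directions. These were Lpl of adipocytes, Alpl of bone, Epcam of epithelium, Cnn1 of smooth muscle, and Upk3b and Krt8 of mesothelium. Only Cnn1 among those called was well above background on all arrays, and the part of these markers in the result was not tested. Of 8 cartilage markers 5 were well above background on all arrays, among them Acan, Col2a1 and Sox9, and so were 3 of 7 bone markers, among them Runx2, 3 of 6 mesothelial, 2 of 5 endothelial, 2 of 6 adipocyte, 5 of 6 smooth muscle, 2 of 4 epithelial and 1 of 5 blood cell markers. Matn1 of cartilage, Ibsp of bone, Wt1 of mesothelium, Pecam1 and Tie1 of endothelium and Ptprc of blood cells were well above background on no array.

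**Figure D2:**
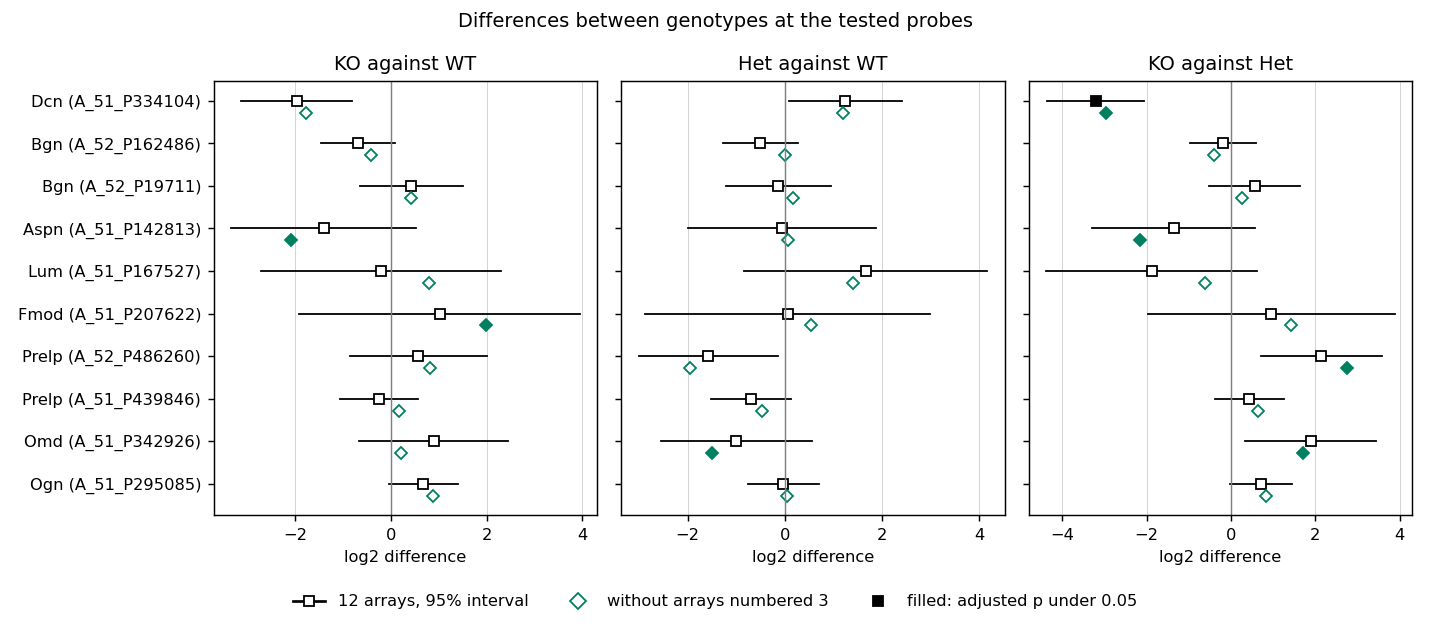
Log2 differences between genotypes at the 10 tested member probes, for KO against WT, Het against WT and KO against Het. Squares are the fit of 12 arrays with its 95% interval, diamonds the fit without the arrays numbered 3, and filled symbols mark an adjusted p under 0.05. The filled square is Dcn in KO against Het cells, and 7 diamonds are filled.

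Osteoglycin, the class III member, also called mimecan, was well above background on all 12 arrays and was not called. Ogn stood at 3.86, 4.41, 4.44 and 4.36 in KO cells, 3.53, 4.05, 3.39 and 3.24 in Het cells, and 2.97, 2.91, 4.34 and 4.12 in WT cells. WT replicates 1 and 2 were the lowest arrays, and the genotypes overlapped. The difference was 0.68 between KO and WT cells (SE 0.33, limma adjusted p = 0.340), 0.71 between KO and Het cells (SE 0.33, adjusted p = 0.452) and −0.03 between Het and WT cells (SE 0.33, adjusted p = 0.972). The 95% intervals of the KO differences ran from −0.05 to 1.41 against WT and from −0.01 to 1.44 against Het cells.

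Over the family, 0 of 10 tested probes were called in KO against WT cells and 0 of 10 in Het against WT cells, where 1.48% and 1.09% of all tested probes were called by limma. At an unadjusted limma p under 0.05 there was 1 member probe of 10 in KO against WT cells (Dcn), 2 in Het against WT cells (Dcn and Prelp A_52_P486260) and 3 in KO against Het cells (Dcn, Prelp A_52_P486260 and Omd), where 16.5%, 16% and 11.2% of all tested probes had such a p. In KO against WT cells 1 of the 10 probes, Dcn, did not overlap between the genotypes, where 8.82% of all tested probes did not, and in Het against WT cells 0 of 10, where 8.74% did not. Without the arrays numbered 3, 2 member probes were called in KO against WT cells (Aspn and Fmod), 1 in Het against WT cells (Omd) and 4 in KO against Het cells (Dcn, Aspn, Prelp and Omd). The same fit called 15.6%, 10.5% and 7.81% of all 26791 probes it tested, so the background was higher too. That fit rests on 3 arrays per genotype, among them the close pairs of replicates 4 and 5 in KO and in Het cells. Of the calls with 12 arrays, 53.2%, 50% and 65.8% were higher in KO against WT, Het against WT and KO against Het cells, and 46.4%, 17.3% and 81.8% without scaling between arrays, where the median difference of all tested probes shifted to 0.06, −0.21 and 0.25. Without that scaling, too, Dcn was called lower in KO than in Het cells.

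The members varied more between arrays of a genotype than most probes did. Their residual SD within genotypes ran from 0.51 for Ogn to 2.14 for Fmod, against a median of 0.36 over all tested probes. Between 70.4% and 99.6% of tested probes had a smaller residual SD than a given member, the highest share being that of Fmod and the next that of Lum (99.2%) and Aspn (97.8%). For Dcn the share was 90.9%.

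**Figure D3:**
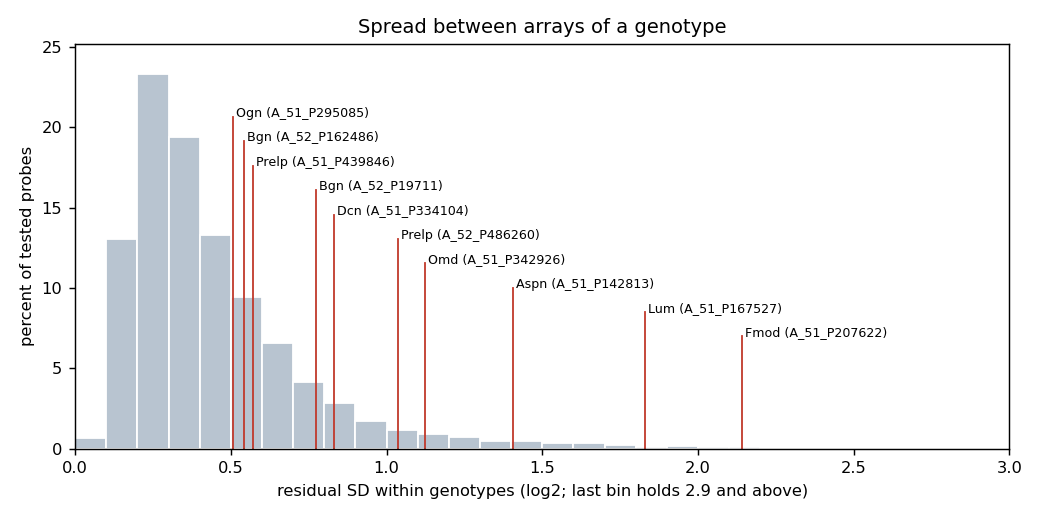
Histogram of the residual SD within genotypes (log2 units) over the tested probes, as percent of probes per bin, with a red line at each of the 10 tested member probes. The lines start at 0.51 (Ogn) and end at 2.14 (Fmod), to the right of the median of 0.36.

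Part of that spread lay in the arrays numbered 3. Aspn and Fmod were above the other 3 arrays of their genotype on the array numbered 3 in KO, in Het and in WT cells. For Fmod, number 3 exceeded the mean of the others by 1.89 in KO, 3.78 in Het and 5.73 in WT cells, and for Aspn by 4.18, 0.94 and 1.42. These were 2 of the 10 tested member probes, and 6.86% of all tested probes showed this pattern. No tested member was below the others on number 3 in all 3 genotypes, a pattern of 8.39% of all tested probes.

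The members did not move alike on these arrays. Lum on number 3 was below every other KO array, and below their mean by 1.62 on the log2 scale. It was above every other Het and every other WT array, and above their means by 3.45 and 2.39. Omd on number 3 exceeded the mean of the other KO arrays by 3.01 and of the other Het arrays by 2.28, but lay within the range of the other WT arrays. Dcn on number 3 was below the other KO and the other WT arrays and within the range of the other Het arrays.

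**Figure D4:**
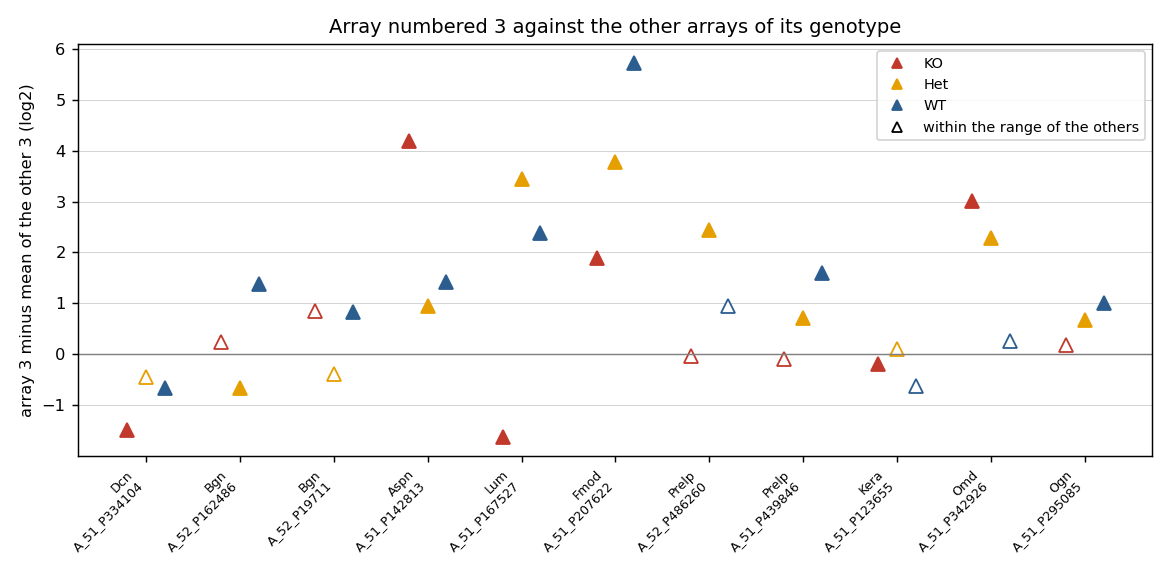
Level on the array numbered 3 minus the mean of the other 3 arrays of its genotype (log2), for 11 member probes in KO, Het and WT cells. Open triangles lie within the range of the other arrays. All 3 triangles are filled and above 0 for Aspn and Fmod, with the highest at 5.73 for Fmod in WT cells.

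The windows of 250 bases before the gene starts of Aspn and Fmod are shown because both members were high on number 3 in every genotype. They were taken from RefSeq on GRCm38.p6, where 7 of the 9 members had an entry, and lie at chr13:49544193-49544442 and chr1:134037004-134037253, both on the plus strand. Capitals mark matches, on either strand, to the TATA box TATAAA, the CCAAT box CCAAT and the AP-1 motif TGANTCA.
Aspn: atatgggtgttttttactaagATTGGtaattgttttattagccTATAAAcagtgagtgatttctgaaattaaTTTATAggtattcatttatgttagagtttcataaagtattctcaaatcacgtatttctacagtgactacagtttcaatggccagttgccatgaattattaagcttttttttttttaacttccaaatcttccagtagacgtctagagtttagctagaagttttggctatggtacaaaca
Fmod: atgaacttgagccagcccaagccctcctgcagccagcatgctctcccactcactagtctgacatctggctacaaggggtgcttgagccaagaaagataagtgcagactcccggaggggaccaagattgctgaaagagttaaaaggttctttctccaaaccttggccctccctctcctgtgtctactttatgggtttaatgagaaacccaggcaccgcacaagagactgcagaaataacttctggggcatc
The Aspn window held TATAAA 2 times, at −207 and −178 from the start, and CCAAT 1 time, at −229. The Fmod window held none of these letters, and neither window held TGANTCA or the GC box GGGCGG. Over all 32851 such windows of 250 bases, 12.4% held TATAAA, 33.8% CCAAT, 6.75% TGANTCA and 32.7% GGGCGG.

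Many members lie side by side in the genome. On GRCm38.p6, Dcn and Lum on chromosome 10 are 47.3 kb apart with 0 genes between them, and Lum and Kera 34.3 kb with 1 gene between. Aspn, Omd and Ogn follow each other on chromosome 13, with gaps of 14.9 kb and 15.4 kb, and Prelp and Fmod lie 107 kb apart on chromosome 1. In KO against Het cells with 12 arrays, the differences were −3.21 for Dcn and −1.88 for Lum, 2.14 for Prelp A_52_P486260 and 0.96 for Fmod, and −1.35 for Aspn, 1.89 for Omd and 0.71 for Ogn. Aspn and Omd had opposite signs and the other tested neighbours the same sign, and of these differences that of Dcn was called. In the fit without those numbered 3 the signs were as with 12 arrays, and Aspn (−2.16), Omd (1.70) and Prelp (2.76) were called as well.

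For each member whose level varied by an SD of at least 0.5 over the 12 arrays, the 3 gene names with the most similar pattern were taken by the root mean square difference of centred levels. For Dcn these were Enpp3, an ectoenzyme that splits nucleotides (0.738), Stc2, a secreted glycoprotein (0.814), and S1pr4, a sphingosine-1-phosphate receptor named Edg6 on the array (0.835), against an SD of 1.57 of Dcn itself. For Aspn they were Cers4 (Lass4 on the array; 0.580), Xpnpep2 (0.591) and Abi3bp (0.644). For Fmod they were Boc, a coreceptor of hedgehog signalling (0.555), Smoc1 (0.592) and Cybrd1 (0.599).

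Lum was nearest to Mfap4, a protein of elastic microfibrils (1.09), then to the class III SLRP Epyc (1.09) and to Rarres2 (1.20). Prelp was nearest to Id2, an inhibitor of basic helix-loop-helix transcription factors (0.580), Kctd12 (0.585) and the collagen receptor subunit Itga1 (0.596). Omd was nearest to the cDNAs AK039524 (0.580) and AK160276 (0.590) and to Shtn1 (0.642). Ogn was nearest to BC039093 (0.245), Slc46a3 (0.262) and 1700052K11Rik (0.274), and Bgn to A730008H23Rik (0.227), Thada (0.240) and Stk40 (0.247).

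The rest of the SLRP family gave no call with 12 arrays. All 9 other SLRP genes had a tested probe, and 0 were called in any comparison by limma, with 2, 3 and 1 at an unadjusted p under 0.05 in KO against WT, Het against WT and KO against Het cells, where 16.5%, 16% and 11.2% of all tested probes had such a p. Podn, podocan, came nearest, at −5.11 ± 0.17 in KO, −5.19 ± 0.55 in Het and −3.67 ± 0.69 in WT cells (SD, n = 4). It differed by −1.44 between KO and WT cells (SE 0.34, limma adjusted p = 0.0623) and by −1.52 between Het and WT cells (adjusted p = 0.0607). Of the 12 fits that left out 1 array, only that without WT replicate 3 called these differences (adjusted p = 0.0492 and 0.0436). The 11 other alternatives, that without the arrays numbered 3 among them, called neither. Over all alternatives the differences ran from −1.79 to −0.64 and from −1.83 to −0.87. Tsku, tsukushi, named Lrrc54 on the array, differed by −0.57 between KO and WT cells (limma adjusted p = 0.0834), and was called lower in that comparison without the arrays numbered 3. Epyc, epiphycan, differed by 1.10 between Het and WT cells (adjusted p = 0.306) and by −1.34 between KO and Het cells (adjusted p = 0.314).

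The other members of this group were not called either. Optc, opticin of the eye, differed by −0.05 between KO and WT cells, Ecm2 by −0.05, Podnl1 by 0.08, Chad, chondroadherin of cartilage, by 0.34, Nyx, nyctalopin of the retina, by −0.29 and Chadl by 0.40. The median difference of the 9 genes was −0.05 in KO against WT, 0.18 in Het against WT and −0.05 in KO against Het cells, against 0.05, 0.03 and 0.00 over all tested probes.

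Of the enzymes that build chondroitin and dermatan sulfate, the chains of decorin and biglycan, 23 of 26 had a tested probe. Chst3, which adds sulfate to chondroitin, was the only one called. It was 1 of 23 in KO against WT and in Het against WT cells, where 1.48% and 1.09% of all tested probes were called. It stood at −1.53 ± 0.74 in KO, −0.61 ± 0.37 in Het and −3.05 ± 0.25 in WT cells (SD, n = 4), and rose in KO against WT cells by 1.52 (SE 0.33, limma adjusted p = 0.0460) and in Het against WT cells by 2.44 (SE 0.33, adjusted p = 0.0104). The median of the 23 genes was 0.01 in KO against WT and 0.05 in Het against WT cells. Of the genes of keratan sulfate synthesis, 10 of 11 were tested, and the sialyltransferase St3gal1 fell in KO against WT cells by 1.69 (SE 0.35, limma adjusted p = 0.0408), at −0.37 ± 0.61 in KO and 1.32 ± 0.60 in WT cells. St3gal1 was the 1 gene called of these 10, in the comparison where 1.48% of all tested probes were called. The median of these 10 genes was −0.10 in KO against WT cells. With the arrays numbered 3 left out, the calls in KO against WT, Het against WT and KO against Het cells were 6, 3 and 2 of 23 in the first list and 4, 0 and 3 of 10 in the second, against 15.6%, 10.5% and 7.81% of all probes.

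Of the 14 collagens that form or decorate the fibrils SLRPs bind, all were tested and 1 was called with 12 arrays. Col5a3, a chain of type V collagen, was higher in Het than in WT cells by 1.36 (SE 0.28, limma adjusted p = 0.0454). In that comparison 1.09% of all tested probes were called. Col1a1 and Col1a2, the chains of type I collagen, differed by 0.16 and 0.31 between KO and WT cells (adjusted p = 0.656 and 0.308). The list's median was 0.22 in KO against WT, 0.39 in Het against WT and −0.28 in KO against Het cells. In the fit that left out the arrays numbered 3, 3 of the 14 were called in KO against WT, 7 in Het against WT and 3 in KO against Het cells, against 15.6%, 10.5% and 7.81% of all probes. Of the proteases that trim or cleave SLRPs, 8 of 10 were tested and 0 were called in any comparison by limma, with 3, 4 and 3 at an unadjusted p under 0.05 in KO against WT, Het against WT and KO against Het cells, against those same 16.5%, 16% and 11.2% of all tested probes. Of these 8, 4, 3 and 3 were called without the arrays numbered 3, among them Adamts4, which was higher in KO and in Het than in WT cells, and Tll1, which was lower in both. Bmp1, which trims the propeptides of SLRPs and procollagens, differed by −0.01 between KO and WT cells (adjusted p = 0.985).

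Among ligands and receptors that SLRPs bind, 13 of 15 genes were tested and 4 were called. By comparison these were 2 genes in KO against WT, 3 in Het against WT and 1 in KO against Het cells, where 1.48%, 1.09% and 0.778% of all tested probes were called. In the fit without the arrays numbered 3 they were 6, 7 and 4 of 13, among them Tgfb2, Egfr and Kdr, against 15.6%, 10.5% and 7.81% of all probes. Bmp4, a growth factor of the TGF-beta family, stood at 1.69 ± 0.28 in KO, −1.05 ± 0.53 in Het and 1.25 ± 0.59 in WT cells (SD, n = 4). It fell in Het against WT cells by 2.30 (SE 0.32, limma adjusted p = 0.0126) and was higher in KO than in Het cells by 2.74 (SE 0.32, adjusted p = 0.00444). Igf1r, a receptor that decorin binds, fell in KO against WT cells by 1.29 (SE 0.17, limma adjusted p = 0.00687) and in Het against WT cells by 1.12 (SE 0.17, adjusted p = 0.0193). Of the innate immune receptors that biglycan signals through, Tlr2 rose in KO against WT cells by 1.41 (SE 0.25, limma adjusted p = 0.0250) and Tlr4 in Het against WT cells by 1.01 (SE 0.20, adjusted p = 0.0427).

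Tgfb1, the ligand that decorin, biglycan and asporin bind, differed by 0.40 between KO and WT cells (limma adjusted p = 0.663). The list's median was 0.40 in KO against WT, −0.38 in Het against WT and 0.73 in KO against Het cells. Of 22 other matrix and cell surface proteoglycans, 17 were tested. Sdc2, the transmembrane proteoglycan syndecan-2, was the only one called, at 4.60 ± 0.36 in KO, 3.45 ± 0.07 in Het and 3.47 ± 0.38 in WT cells (SD, n = 4). It was 1 of 17 in KO against WT and in KO against Het cells, where 1.48% and 0.778% of all tested probes were called. It rose in KO against WT cells by 1.13 (SE 0.22, limma adjusted p = 0.0322) and in KO against Het cells by 1.15 (SE 0.22, adjusted p = 0.0367), and the list's median was −0.12 in KO against WT and −0.19 in KO against Het cells. When the arrays numbered 3 were left out, 4, 4 and 3 of the 17 were called in KO against WT, Het against WT and KO against Het cells. The same fit called 15.6%, 10.5% and 7.81% of all probes it tested.

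The calls in these lists differed in how far they rested on single arrays. With each of the 12 arrays left out in turn, Chst3 in Het against WT, Bmp4 in KO against Het and Igf1r in KO against WT cells were called in 12 of 12 fits, with differences over all alternatives of 2.18 to 2.83, 2.58 to 3.06 and −1.43 to −1.19. Bmp4 in Het against WT cells was called in 11, all but that without Het replicate 4, and Igf1r in Het against WT cells in 8, all but those without Het replicate 2 or 4 or WT replicate 2 or 5. Tlr2 was called in 6 fits and lost its call without KO replicate 2, 4 or 5 or WT replicate 1, 2 or 5. Chst3 in KO against WT cells, Col5a3 and Sdc2 in KO against WT cells kept their calls in 3 fits, those without an array numbered 3. St3gal1 kept its call in 2, without Het or WT replicate 3, Tlr4 in 4 and Sdc2 in KO against Het cells in 5. Over the 11 other alternatives, Chst3 in Het against WT cells and both Bmp4 calls were kept in 10. Both Igf1r calls were kept in 7 and lost with slide or replicate number as a block. Tlr2 and St3gal1 were kept in 6. Chst3 in KO against WT, Col5a3, Tlr4 and Sdc2 in KO against Het cells were kept in 4, and Sdc2 in KO against WT cells in 3. With replicates 4 and 5 averaged, none of these calls was kept, and the adjusted p over all alternatives went up to 0.294.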

How the data were processed

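Expression was measured on 12 1-colour Agilent arrays, 4 for each of 3 genotypes, with replicate numbers from the sample titles and 500 ng of RNA labelled per array. Per the submitters' processing notes, the authors extracted the scans with Agilent Feature Extraction 9.5. The deposited spot tables hold processed signals, an intensity after detrending and background subtraction within each array, with no scaling between arrays. The deposited series table holds the same intensity (largest relative difference 0). The authors deposited no log2 values: the log2 of the processed signal minus each array's 75th percentile was computed here. Control spots and spots that the software marked as outliers were dropped, and spots of a probe were averaged. A probe was tested if well above background on all arrays of at least 1 genotype, and each probe was tested separately.

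The 3 genotypes were fitted together with limma 3.58.1 in R 4.3.3 (version 1.17.8 of data.table, 2.0.0 of jsonlite), and Benjamini-Hochberg adjustment covered all tested probes. Single probes were compared with exact two-sided permutation tests. Tables and figures were made in Python 3.11.15 with pandas 2.3.3 and matplotlib 3.10.9. The number of arrays limits the precision.

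The members and lists were chosen with earlier results of these data known. Named genes are every member probe, the other SLRP genes, the genes called in each further list (up to 4 by size, and at most 2 others) and, by pattern, the 3 nearest gene names of each member. Older array names were matched by accession or synonym to RefSeq, and for lists the probe with the highest mean stood for its gene. Alternatives were normexp background correction (offset 50), quantile or no scaling, no filter on dim probes, slide or replicate number as a block, only the genotypes compared, 1 probe per gene, the series table as deposited, no arrays numbered 3, and each array left out in turn. Averaging replicates 4 and 5 was added after seeing the data. Same-numbered arrays of different genotypes had deviations from their group means correlated at −0.09 to 0.40 over 10 pairs, against −0.41 to 0.37 over 38 other pairs. Arrays numbered 3 correlated at 0.35 (Het and KO), 0.40 (Het and WT) and 0.20 (KO and WT). These ranges overlap and do not settle whether the numbers pair the samples. The main fit did not pair them, and the fit with replicate number as a block did.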

Additional observations from a re-analysis of the deposited data

Results flagged for a closer look

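In 6 of 36 sets of 4 arrays (1 probe in 1 genotype), the highest or lowest array stood so far from the other 3 that its gap to the nearest exceeded 0.829 of the whole range. That limit flags about 5% of sets of 4 independent, normally distributed values, which these arrays need not be. The share flagged over all tested probes was not computed, so the count of 6 has no background beside it. Dcn on Het replicate 2 stood at 4.21, against 2.44 to 2.71 on the other Het arrays. Aspn on KO replicate 3 stood at 2.47, against −1.77 to −1.60 on the other KO arrays. Omd on KO replicate 3 stood at 1.88, against −1.24 to −0.97, and on Het replicate 3 at −0.56, against −3.0 to −2.71 on the other Het arrays. Ogn on KO replicate 2 stood at 3.86, against 4.36 to 4.44 on the other KO arrays. Prelp A_52_P486260 on KO replicate 2 stood at −0.061, against −0.17 to −0.16, a gap that is small beside the spread of this probe in the other genotypes.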

How the results depend on the processing

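The number of member probes called was 0 in KO against WT, 0 in Het against WT and 1 in KO against Het cells. It was the same under normexp background correction, quantile scaling, no scaling, no filter on dim probes, slide as a block, only the genotypes compared, 1 probe per gene and the deposited series table. With a replicate block it was 0, 0 and 1 too, and Dcn in KO against Het cells had −3.21 (adjusted p = 0.0391). Without the arrays numbered 3 it was 2, 1 and 4, and with replicates 4 and 5 averaged, an alternative added after seeing the data, it was 0 in KO against Het cells. With 1 array left out in turn it ran from 0 to 1 in KO against WT, stayed 0 in Het against WT and ran from 0 to 2 in KO against Het cells, where the 1 call without Het replicate 4 was Kera.

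Over all probes, the 380, 278 and 199 calls (KO against WT, Het against WT, KO against Het) became 167, 60 and 91 under normexp, 153, 162 and 209 without scaling, 126, 60 and 88 without a filter, and 73, 55 and 105 with slide as a block. They were 142, 113 and 217 with a replicate block, 146, 73 and 388 with only the genotypes compared, 4179, 2806 and 2093 without the arrays numbered 3, and 41, 6 and 9 with replicates 4 and 5 averaged. Leaving out 1 array gave 67 to 2410, 39 to 2039 and 51 to 520. The 2410 and 2039 calls both came without WT replicate 3, whose Xist and Ddx3y levels go against its label. The next highest counts were 713 in KO against WT, without KO replicate 3, and 501 in Het against WT cells, without Het replicate 3. The 520 calls came without Het replicate 3. The cause was not tested.

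Differences near 0 changed sign without becoming a call. Without the arrays numbered 3, Lum in KO against WT cells was 0.79, Prelp A_51_P439846 in KO against WT cells 0.17, and in Het against WT cells Bgn A_52_P162486 was 0.0074, Bgn A_52_P19711 0.17, Aspn 0.069 and Ogn 0.051. With replicates 4 and 5 averaged, Aspn in Het against WT cells was 0.15, Ogn 0.045, and Bgn A_52_P162486 in KO against Het cells 0.029, which was 0.066 without scaling. Prelp A_51_P439846 in KO against WT cells was 0.11 under normexp. In Het against WT cells, Fmod was −0.015 under normexp, −0.19 without scaling, −1.01 with slide as a block and −0.14 with a replicate block, and Aspn 0.14 with a replicate block. With 1 array left out, Lum in KO against WT cells ran from −1.18 to 0.38 and Prelp A_51_P439846 from −0.55 to 0.14. In Het against WT cells, Bgn A_52_P19711 ran from −0.45 to 0.072, Aspn from −0.49 to 0.30, Fmod from −0.89 to 1.49 and Ogn from −0.26 to 0.22. The second Dcn probe and Kera were near background and entered no fit of 12 arrays but that without a filter on dim probes, where neither was called.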
